A study of Mus musculus with 6 samples.

Results

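The proprotein convertases that cut at basic amino acids were compared between immortalized wildtype (WT) and Alport syndrome (AS) podocytes. The family consists of 7 genes, Furin, Pcsk1, Pcsk2, Pcsk4, Pcsk5, Pcsk6 and Pcsk7, taken by symbol from the 57132 genes of the count table, and it was chosen for description because Pcsk5 was far lower in AS podocytes. RNA was sequenced from 3 samples of each line. The labels do not say whether these came from separate cultures, so that p-values measure the spread between these samples, which may be technical. The lines came from adult male mice of 8 weeks, WT with genotype Col4a3+/+ and AS with genotype Col4a3-/-, and both carry the H-2kb-tsA58 transgene, a temperature-sensitive large T antigen under an interferon-inducible promoter. Both were grown at 33 °C with 20 U/mL interferon gamma and differentiated at 37 °C for 14 days according to the sample records, and neither line was treated. For the interferon and the days of differentiation the methods text differs from these records. Each genotype is 1 cell line, so genotype and line cannot be told apart.

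Proprotein convertases are calcium-dependent serine proteases of the secretory pathway. They cut precursor proteins after clusters of basic residues and so release or activate growth factors, receptors, integrins and metalloproteinases. Furin is present in nearly every cell and cycles between the trans-Golgi network, the cell surface and endosomes. Pcsk5 and Pcsk6 share a cysteine-rich domain through which they are held at the cell surface and in the matrix, and Pcsk5 is spliced into a soluble and a membrane-bound form. Pcsk7 is membrane-bound, Pcsk1 and Pcsk2 work in the secretory granules of endocrine and nerve cells, and Pcsk4 is best known from germ cells. In mice, loss of Pcsk5 leads to malformations of the skeleton and kidney, through a failure to activate Gdf11, a ligand of the TGF-beta family.

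The promoter windows of Pcsk5 and Pcsk6 are given because these closely related members stood on opposite sides of the comparison. The windows run from 250 bases before to 50 bases after a transcript start and come from RefSeq on GRCm38.p6, which is not the build named in the processing notes. The Pcsk5 window is chr19:17837583-17837882 on the minus strand, and the Pcsk6 window is chr7:65861886-65862185 on the plus strand. Capitals mark GGGCGG on either strand, the core of the GC box bound by Sp1-type factors.
Pcsk5: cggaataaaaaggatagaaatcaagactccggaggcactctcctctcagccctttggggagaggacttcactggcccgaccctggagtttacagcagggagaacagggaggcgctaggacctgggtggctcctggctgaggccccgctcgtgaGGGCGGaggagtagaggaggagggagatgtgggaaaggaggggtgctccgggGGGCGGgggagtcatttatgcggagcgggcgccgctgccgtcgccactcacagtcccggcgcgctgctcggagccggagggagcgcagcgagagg
Pcsk6: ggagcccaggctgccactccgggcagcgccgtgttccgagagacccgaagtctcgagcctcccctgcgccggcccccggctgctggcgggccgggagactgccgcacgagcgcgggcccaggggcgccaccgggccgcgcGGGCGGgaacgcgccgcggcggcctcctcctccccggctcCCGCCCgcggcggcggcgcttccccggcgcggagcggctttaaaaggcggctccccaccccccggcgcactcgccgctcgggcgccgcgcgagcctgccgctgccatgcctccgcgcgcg
Each window held 2 matches to GGGCGG, a motif found in 35.7% of 32851 RefSeq windows of 300 bases. Neither held TATAAA, the TATA box core (13.6% of windows), TGACGTCA, the cAMP response element (1.79%), or TGACTCA, the AP-1 element (5.2%), with both strands searched. GC content was 65.7% in the Pcsk5 window and 81.7% in the Pcsk6 window, against a median of 52.7% over all windows. Windows were matched for 6 of the 7 members, all but Pcsk4. Those of Pcsk1, Pcsk2 and Pcsk7 held GGGCGG as well, with 1, 7 and 3 matches. Of the 2 Furin windows, 1 held 2 matches to GGGCGG and the other held none but held TATAAA. TGACGTCA was found in the window of Pcsk1. The motifs are described without any measurement of factor binding.

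The total count was between 45417221 and 54290968 per sample. Expression is given as CPM, the read count of a gene scaled to a library size that was itself corrected by TMM, and changes as log2 fold change of AS over WT with a standard error (SE). Col4a3, the gene knocked out in the AS line, was at 938, 1052 and 1272 CPM in WT and 62.4, 61.2 and 82.9 CPM in AS podocytes (log2 fold change -3.98, SE 0.15, adjusted p = 1.31e-07, edgeR). Counts in pairs of samples of 1 line differed by more than sampling noise, with a chi-square per degree of freedom between 9.83 and 50, and the highest values, 47.7 and 50, were the pairs with WT replicate 1. Of 10 podocyte markers, 7 passed the low-count filter, and 2 were called higher and 5 lower in AS podocytes (adjusted p under 0.05, edgeR). Of all genes tested, 20.4% were called higher and 19.6% lower. The marker Tcf21 had 0 counts in all 6 samples, and Nphs1 was between 0 and 0.473 CPM, while Synpo was at 803 ± 44.2 and 526 ± 30.8 CPM (SD, n = 3 each). Markers of other cells were summed per sample. The sum of 6 endothelial markers was at most 1.35 CPM, that of 5 leukocyte markers was between 9.62 and 12.1 CPM in WT and between 3.49 and 4.3 CPM in AS podocytes, and that of 5 mesangial markers was between 247 and 275 CPM in WT podocytes and between 123 and 125 CPM in AS podocytes. Each of the last 2 sums was mostly 1 gene, Csf1r (10.3 and 3.82 CPM) for leukocytes, where Adgre1 and Cd3e had 0 counts, and Pdgfrb (253 and 116 CPM) for mesangial cells, where Gata3 (5.4 and 6.73 CPM) and Des (0.902 and 1.08 CPM) were not called. The 6 parietal epithelial markers summed to between 648 and 675 CPM in WT podocytes and between 503 and 533 CPM in AS podocytes. Of them Pax2 (171 and 116 CPM), Cd44 (250 and 184 CPM) and Krt19 (3.98 and 0.34 CPM) were called lower. Pax8 (221 and 198 CPM) and Cldn1 (18.8 and 22.2 CPM) were not called, and Krt8 was not tested. The 5 tubule markers, mostly Lrp2, summed to between 246 and 307 CPM in WT podocytes and between 197 and 307 CPM in AS podocytes, where Umod and Aqp2 were at 0 counts. Their part in the values below was not tested.

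Of the 7 convertases, 5 passed the low-count filter (Furin, Pcsk4, Pcsk5, Pcsk6 and Pcsk7) and 2 did not (Pcsk1 and Pcsk2). Called means a Benjamini-Hochberg adjusted p under 0.05 over all 16263 genes tested (quasi-likelihood test of edgeR), and 4 of these 5 were called, 2 higher and 2 lower in AS podocytes. Of all genes tested, 40.1% were called, 20.4% higher and 19.6% lower. In the same 4 members WT and AS samples did not overlap in CPM, as in 52.3% of all genes tested. The family was chosen on this contrast, so nothing is read from these counts and the members' values are given as a description without p-values.

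Pcsk5 (ENSMUSG00000024713.17, chromosome 19) was at 177, 226 and 240 CPM in WT podocytes and at 3.15, 3.03 and 3.34 CPM in AS podocytes. Every AS sample was far below every WT sample, and WT replicate 1 was the lowest of the WT samples. These values rest on 8966, 10591 and 11086 reads in WT and 142, 156 and 184 reads in AS podocytes, so that a low level remained countable in each AS sample. The means were 214 ± 33.3 and 3.18 ± 0.156 CPM (SD, n = 3 each), 67.5-fold lower in AS podocytes, with a log2 fold change of -6.07 (SE 0.13). Without WT replicate 1 it was -6.20, and over the 6 fits that left out 1 sample it lay between -6.20 and -5.99. Of all 16263 genes tested, 42 had a lower log2 fold change. In RNA from whole cultures, fewer cells that express a gene and less RNA per cell cannot be told apart. Counts per gene do not separate the soluble from the membrane-bound splice form.

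Pcsk6 (ENSMUSG00000030513.15, chromosome 7), the member most like Pcsk5 in its domains, was at 116, 156 and 172 CPM in WT podocytes and 256, 253 and 271 CPM in AS podocytes. Every AS sample was above every WT sample, and WT replicate 1 was again the lowest. The means were 148 ± 28.8 and 260 ± 9.92 CPM (SD, n = 3 each), a ratio of 1.76 and a log2 fold change of 0.82 (SE 0.12). Without WT replicate 1 the log2 fold change was 0.67. The WT samples varied more than the AS samples in both genes, with a coefficient of variation of 15.5% against 4.9% for Pcsk5 and 19.5% against 3.81% for Pcsk6. The ratio of Pcsk6 to Pcsk5 per kb of merged exons lay between 1.82 and 1.99 in WT podocytes and between 226 and 232 in AS podocytes. Both genes were lowest in WT replicate 1, the sample whose pairs had the highest chi-square above. A link between Pcsk5 and Pcsk6 was not tested. The size of the ratio of Pcsk6 to Pcsk5 depends on the length used. Per kb of the longest transcript, Pcsk6 and Pcsk5 were at 33.5 and 29.8 CPM in WT podocytes and at 59 and 0.442 CPM in AS podocytes.

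Furin (ENSMUSG00000030530.16, chromosome 7), the convertase found most widely, was at 232, 224 and 228 CPM in WT podocytes and 186, 183 and 180 CPM in AS podocytes. The groups did not overlap although the difference was small, with means of 228 ± 4.17 and 183 ± 2.82 CPM (SD, n = 3 each) and a log2 fold change of -0.32 (SE 0.05). Furin was the steadiest member, with a coefficient of variation of 1.83% in WT and 1.54% in AS podocytes. Pcsk7 (ENSMUSG00000035382.10, chromosome 9) was at 23.5, 24 and 25.4 CPM in WT and 22.7, 22.9 and 25.1 CPM in AS podocytes. Its groups overlapped, and the log2 fold change of -0.04 (SE 0.07) was within the spread between samples. The value of Pcsk7 is uncertain, since 108 of its 5202 exon bases lie opposite exons of Tagln, a smooth muscle gene at 4158 CPM in WT podocytes and 2859 CPM in AS podocytes, and 415 lie opposite Rnf214 at 42.7 and 44 CPM. Whether the counting used strand is not stated.

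Pcsk4 (ENSMUSG00000020131.15, chromosome 10), the germ cell convertase, was near the limit of what was tested. It was at 0.552, 0.513 and 0.585 CPM in WT and 0.799, 1.58 and 1.31 CPM in AS podocytes, from 24 to 28 reads per WT sample and 36 to 81 per AS sample. The groups did not overlap, and AS replicate 1 lay nearest to WT. The log2 fold change was 1.16 (SE 0.32), and it was 0.85 relative to the median of chromosome 10, whose 758 tested genes had a median of 0.31. It lost the threshold without WT replicate 2, AS replicate 2 or AS replicate 3, with log2 fold changes of 1.11, 0.94 and 1.11. The granule convertases were at or near 0. Pcsk1 (ENSMUSG00000021587.6, chromosome 13) had 0 reads in each WT sample, which allows up to 0.0209 CPM (3 counts over the group, counting error alone), and 1 read in all in AS podocytes. Pcsk2 (ENSMUSG00000027419.10, chromosome 2) had 0, 2 and 2 reads in WT and 10, 1 and 10 reads in AS podocytes, and its groups overlapped. Both fell below the low-count filter, so a difference in Pcsk1 or Pcsk2 was not tested.

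**Figure D1:**
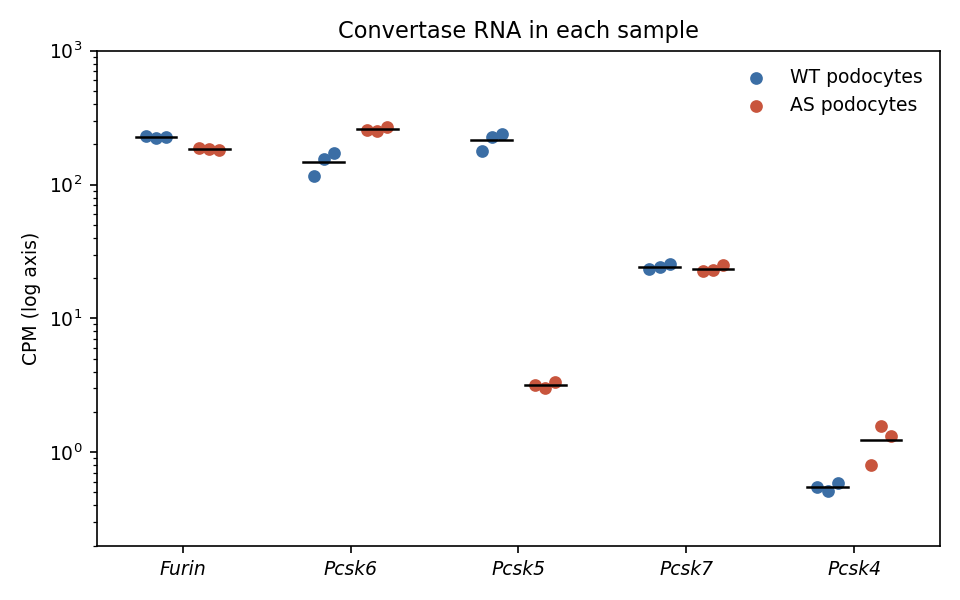
CPM of the 5 convertases that passed the low-count filter, on a log axis, for each WT (blue) and AS (red) sample, with black lines at the group means. Pcsk5 lies at 177 to 240 CPM in WT and 3.03 to 3.34 CPM in AS podocytes, Pcsk6 is higher and Furin slightly lower in AS podocytes, and Pcsk7 overlaps.

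Levels of different genes were compared as CPM per kb of merged exons. In WT podocytes Pcsk6 was at 28.5 ± 5.55, Furin at 24.9 ± 0.454, Pcsk5 at 14.8 ± 2.31, Pcsk7 at 4.67 ± 0.187 and Pcsk4 at 0.186 ± 0.0123 CPM per kb (SD, n = 3 each). Pcsk6 and Furin did not differ beyond the spread of Pcsk6, since WT replicate 1 had Pcsk6 at 22.3 and Furin at 25.3 CPM per kb, while the other neighbours in this order were apart by more than their SD. In AS podocytes the order was Pcsk6 at 50.1 ± 1.91, Furin at 19.9 ± 0.307, Pcsk7 at 4.53 ± 0.261, Pcsk4 at 0.415 ± 0.133 and Pcsk5 at 0.22 ± 0.0108 CPM per kb (SD, n = 3 each). The AS samples of Pcsk4 (0.27 to 0.533) and Pcsk5 (0.21 to 0.231) did not overlap. Pcsk5 was thus in the third place in WT and in the fifth place in AS podocytes. Its level depends on the length used, since the merged exons span 14447 bases and the longest transcript 7188. With the longest transcript Pcsk5 was at 29.8 CPM per kb in WT podocytes, and Furin (39.8) and Pcsk6 (33.5) changed places.

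The 7 genes together gave 64.6, 74.9 and 79.6 CPM per kb in WT and 74.4, 73.8 and 77.4 CPM per kb in AS podocytes, and these sums overlapped. Pcsk5 made up 19, 20.9 and 20.9% of the sum in WT podocytes and 0.293, 0.285 and 0.299% in AS podocytes. The share of Pcsk6 went from 34.6, 40.1 and 41.6% to 66.3, 66 and 67.5% of the sum, and the share of Furin went from 39.2, 32.6 and 31.2% to 27.2, 27 and 25.3%. Without Pcsk5 the sum was 52.3, 59.2 and 63 CPM per kb in WT and 74.2, 73.6 and 77.2 CPM per kb in AS podocytes. With the longest transcript as length, the sum of the 7 was 97.6, 112 and 119 in WT and 97.1, 96.1 and 100 CPM per kb in AS podocytes, which again overlapped but with the higher mean in WT. On that length Pcsk5 made up 25.2, 28 and 28.1% of the sum in WT and 0.452, 0.439 and 0.463% in AS podocytes. These sums count RNA, and protease activity was not measured.

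**Figure D2:**
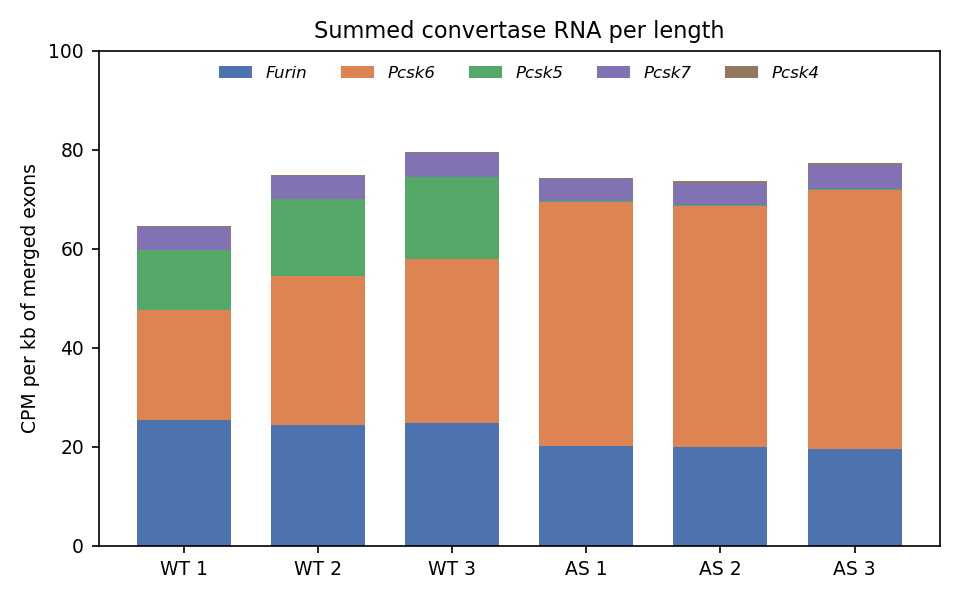
CPM per kb of merged exons of the convertases in each sample, stacked, with Pcsk1 and Pcsk2 too low to be seen. The totals overlap between WT (64.6 to 79.6) and AS podocytes (73.8 to 77.4), while the Pcsk5 layer (19 to 20.9% in WT) is absent to the eye and the Pcsk6 layer is larger in AS podocytes.

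The genes beside Pcsk5 on chromosome 19 were examined, as position was not used to choose it. Of the 5 nearest tested protein-coding genes on each side, in the gene order of GENCODE M21, 4 of 10 were called, against 40.1% of all genes tested. The immediate neighbours did not pass the test. Rfk, which encodes riboflavin kinase, was at 68, 71.5 and 73.6 CPM in WT and 75.1, 71.3 and 72 CPM in AS podocytes, with a log2 fold change of 0.04 (SE 0.06, adjusted p = 0.646, edgeR). Ostf1 on the other side had a log2 fold change of -0.08 (SE 0.06, adjusted p = 0.353, edgeR). Further out, Gcnt1, a glycosyltransferase gene, rose from 0.351 ± 0.18 to 3.67 ± 0.596 CPM (SD, n = 3 each; adjusted p = 4.48e-05, edgeR) and Prune2 rose with a log2 fold change of 0.94 (SE 0.15, adjusted p = 0.000862, edgeR). Trpm6, a magnesium channel gene, fell from 11.9 ± 2.65 to 2.81 ± 0.854 CPM (SD, n = 3 each; adjusted p = 0.000158, edgeR), and D030056L22Rik fell by 0.24 on the log2 scale (adjusted p = 0.0132, edgeR). The other 4 (Gna14, Vps13a, Nmrk1 and Carnmt1) were not called. The 550 tested genes of chromosome 19 had a median log2 fold change of 0.19, and relative to it Pcsk5 was at -6.27.

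**Figure D3:**
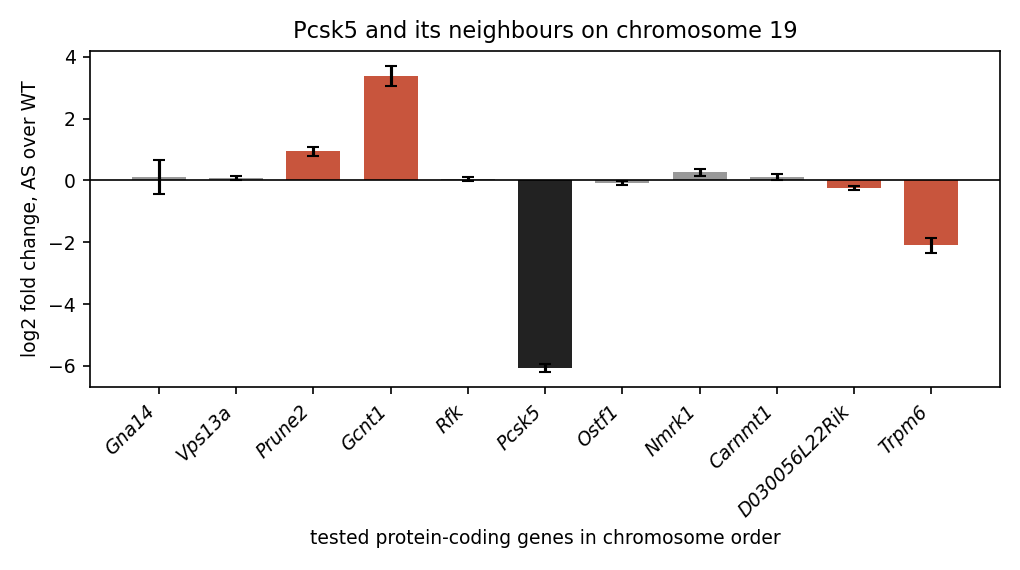
Log2 fold change of AS over WT with its standard error for Pcsk5 (black) and the 5 nearest tested protein-coding genes on each side in chromosome order, red where the adjusted p was under 0.05. Pcsk5 stands at -6.07 between Rfk (0.04) and Ostf1 (-0.08).

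Genes with a pattern like that of Pcsk5 were sought among 12911 others with a mean of at least 1 CPM, by the Euclidean distance between profiles of log2(CPM + 0.1) over the 6 samples, each centred on its mean. The nearest were Gm14287 (distance 0.605), Gm8210 (0.735), Pitx1 (0.747), Dcdc2a (0.793) and Irx2 (0.796). Pitx1 and Irx2 are homeobox transcription factor genes, and Dcdc2a encodes a doublecortin-domain protein of cilia. Pitx1 was at 4.97, 10.1 and 5.72 CPM in WT and 0.0222, 0.0195 and 0 CPM in AS podocytes, and Irx2 was at 17, 18.5 and 16.6 CPM in WT and 0.266, 0.0973 and 0.109 CPM in AS podocytes. Pitx1, Dcdc2a and Irx2 lie on chromosome 13, and none of the 5 lies on chromosome 19. Gm14287 and Gm8210 are processed pseudogenes, so their values are uncertain. The 6 samples fall into the 2 lines and the measure mainly reflects the size of the difference between them after 0.1 CPM is added, so the likeness is a description. That 0.1 CPM exceeds the AS means of Pitx1 (0.0139 CPM) and Dcdc2a (0.065 CPM) and so lessens their differences. Their log2 fold changes were -8.78 and -7.57, against -6.07 for Pcsk5. Those of Gm14287, Gm8210 and Irx2 were -6.42, -5.78 and -6.81.

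**Figure D4:**
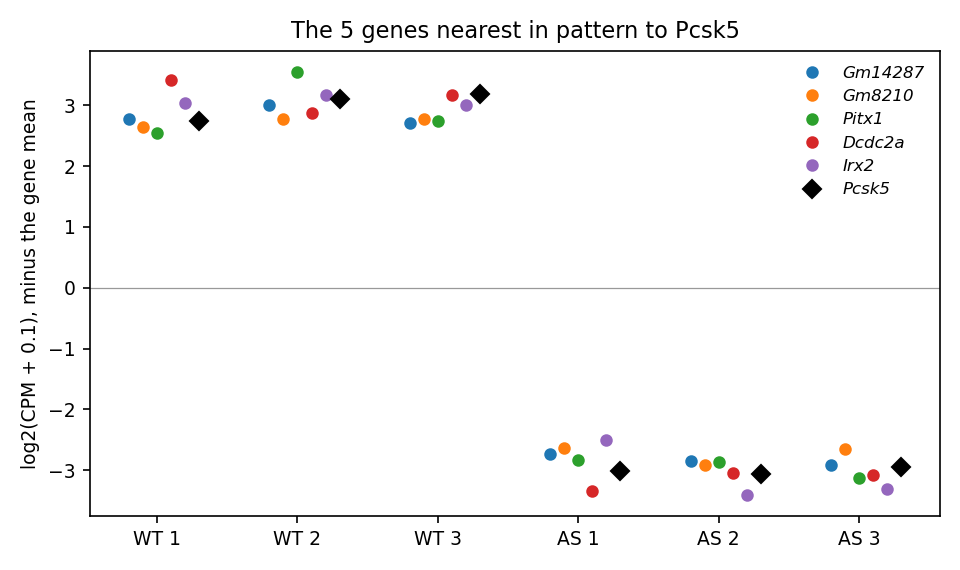
Log2(CPM + 0.1) minus the mean of each gene in each of the 6 samples, for Pcsk5 (black diamonds) and the 5 nearest genes (coloured points). Pcsk5 lies between 2.75 and 3.19 in the WT samples and between -3.07 and -2.94 in the AS samples, and the 5 genes lie around it.

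The other genes of the pathway were taken from 11 lists of 122 genes, of which 99 were tested. In all, 63 were called, 37 higher and 26 lower in AS podocytes, a share of 63.6% where all genes tested gave 40.1%. Their median log2 fold change was 0.08 against 0.01 for all genes tested. Nothing particular to the listed genes is read from this share. The counts of genes that rose or fell in each list below are counts of called genes. They stand beside 20.4% called higher and 19.6% called lower over all genes tested, and nothing particular to a list is read from them.

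The site proteases differ from the family in cutting within or beside membranes to release transcription factors such as the SREBPs. Both were higher in AS podocytes. Mbtps1, the site-1 protease and a relative of the convertases, was at 230, 221 and 207 CPM in WT podocytes and 313, 280 and 283 CPM in AS podocytes, with a log2 fold change of 0.41 (SE 0.07, adjusted p = 0.00109, edgeR). It lies on chromosome 8, whose 890 tested genes had a median log2 fold change of 0.31, and relative to it Mbtps1 was at 0.11. Mbtps2, the site-2 protease, rose by 0.20 on the log2 scale (SE 0.06, adjusted p = 0.0221, edgeR), and it did not pass without a filter on low counts (adjusted p = 0.0673, edgeR) or when WT replicate 2, AS replicate 1, AS replicate 2 or AS replicate 3 was left out.

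Of the inhibitors, chaperones and sorting partners, 12 of 14 were tested, 3 rose and 5 fell, and the median log2 fold change was -0.05. Gbp2, an interferon-induced GTPase that inhibits furin, fell from 62.2 ± 6.28 to 31.5 ± 2 CPM (SD, n = 3 each; adjusted p = 2.39e-05, edgeR). Serpinb8, a serpin that inhibits furin, fell from 8.46 ± 1.21 to 3.72 ± 0.134 CPM (SD, n = 3 each; adjusted p = 0.000181, edgeR). Gga2, an adaptor of the trans-Golgi network, fell by 0.53 on the log2 scale (adjusted p = 0.000708, edgeR), whereas the furin sorting gene Pacs1 had a log2 fold change of 0.17 (adjusted p = 0.0658, edgeR). Pcsk1n, which encodes the Pcsk1 inhibitor proSAAS, fell from 2.87 ± 0.313 to 0.949 ± 0.374 CPM (SD, n = 3 each; adjusted p = 0.00195, edgeR) in cells where Pcsk1 itself was at or near 0 reads. The Pcsk2 chaperone gene Scg5 was at no more than 0.108 CPM in any sample and was not tested.

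Enzymes that trim the cut ends were next. Of 7 tested, 3 rose and 1 fell, with a median log2 fold change of -0.07. Cpe, the carboxypeptidase that removes basic residues in the regulated pathway, was at 2034, 2422 and 2176 CPM in WT podocytes and 4206, 4036 and 3608 CPM in AS podocytes, a rise of 0.84 on the log2 scale (SE 0.09, adjusted p = 1.00e-04, edgeR). Cpe lies on chromosome 8 and was at 0.53 relative to its median. Cpd, its counterpart of the trans-Golgi network, fell from 717 ± 39.6 to 495 ± 18.9 CPM (SD, n = 3 each; adjusted p = 0.000212, edgeR). Pam, which amidates peptides, rose by 0.53 on the log2 scale (adjusted p = 0.000155, edgeR). Of the 10 secretory granule genes 5 were tested, and 1 rose and 2 fell. Vgf rose from 9.39 ± 0.505 to 16.1 ± 0.993 CPM (SD, n = 3 each; adjusted p = 0.000191, edgeR) and Ptprn fell from 40.6 ± 4.35 to 28.7 ± 1.29 CPM (SD, n = 3 each; adjusted p = 0.00145, edgeR). Scg3 fell as well, although it was at no more than 0.433 CPM in any sample (adjusted p = 0.00665, edgeR). Chga, the chromogranin that defines endocrine granules, was at no more than 0.195 CPM and Gcg had 0 reads in all samples.

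The precursors that convertases cut were divided into 7 lists of 89 genes, of which 73 were tested, 28 rose and 18 fell, and the median log2 fold change was 0.09. These were 38.4% and 24.7% of those tested, against 20.4% and 19.6% of all genes tested. Of the TGF-beta family, 13 of 20 were tested, 6 rose and 4 fell. Gdf11, the ligand activated by Pcsk5, was at 109, 86.8 and 84.2 CPM in WT podocytes and 117, 122 and 126 CPM in AS podocytes, a rise of 0.38 on the log2 scale (SE 0.09, adjusted p = 0.01, edgeR). Gdf11 lies on chromosome 10 and was at 0.07 relative to its median of 0.31. Bmp4, a morphogen whose precursor convertases cut, was at 240, 215 and 256 CPM in WT and 77, 68.7 and 70.9 CPM in AS podocytes (log2 fold change -1.71, SE 0.08, adjusted p = 3.56e-07, edgeR). Gdf15, a stress-induced ligand, fell from 818 ± 61.1 to 239 ± 28.8 CPM (SD, n = 3 each; adjusted p = 1.17e-06, edgeR). Inhbb, an activin subunit gene, rose from 21.7 ± 5.32 to 62.2 ± 5.03 CPM (SD, n = 3 each; adjusted p = 7.65e-05, edgeR). The TGF-beta genes themselves were split, as Tgfb1 rose by 0.31 (adjusted p = 0.0139, edgeR), Tgfb3 fell by 0.48 (adjusted p = 0.000738, edgeR) and Tgfb2 had a log2 fold change of 0.03 (adjusted p = 0.83, edgeR).

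Of the other growth factor precursors, 10 of 13 were tested, 5 rose and 1 fell. Vegfd, a lymphangiogenic factor, was at 0.217, 0.406 and 0.173 CPM in WT and 4.11, 2.32 and 4.45 CPM in AS podocytes (log2 fold change 3.76, SE 0.38, adjusted p = 5.84e-05, edgeR). Pdgfb, which encodes a chain of platelet-derived growth factor, fell from 281 ± 28.6 to 157 ± 9.98 CPM (SD, n = 3 each; adjusted p = 4.98e-05, edgeR). Of 12 receptor precursors, all tested, 4 rose and 2 fell. Insr, the insulin receptor gene, rose by 0.54 on the log2 scale (adjusted p = 0.0014, edgeR) and was at 0.23 relative to the median of chromosome 8, Sorl1 fell by 1.16 (adjusted p = 0.000609, edgeR) and Notch4 fell by 2.10 (adjusted p = 0.000673, edgeR). Igf1r, which furin cuts into its subunits, had a log2 fold change of -0.06 (SE 0.10, adjusted p = 0.65, edgeR).

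Of the metalloproteinase precursors, whose propeptides end at a convertase site, 19 of 20 were tested, 9 rose and 6 fell, with a median log2 fold change of 0.28. These were 47.4% and 31.6% of those tested, against 20.4% and 19.6% of all genes tested. Mmp11 was at 31.6, 35.7 and 35.9 CPM in WT and 77.1, 81.1 and 88.2 CPM in AS podocytes (log2 fold change 1.26, SE 0.07, adjusted p = 2.21e-06, edgeR), and it was at 0.95 relative to the median of chromosome 10. The membrane-type enzymes Mmp15 and Mmp14 rose by 1.25 (adjusted p = 6.42e-06, edgeR) and 0.63 (adjusted p = 6.31e-05, edgeR) on the log2 scale, and Mmp15 was at 0.94 relative to the median of chromosome 8. The sheddase gene Adam10 fell by 0.31 (adjusted p = 0.00345, edgeR). Of the integrin and cadherin precursors, 11 of 12 were tested, 4 rose and 3 fell, with a median of -0.24. L1cam, a neural adhesion molecule gene, rose from 109 ± 2.32 to 250 ± 17.5 CPM (SD, n = 3 each; adjusted p = 1.05e-06, edgeR). Itga5, the fibronectin receptor chain, rose by 0.73 (adjusted p = 3.12e-05, edgeR), Cdh11 rose by 0.50 (adjusted p = 0.000199, edgeR) and Itga3, the laminin receptor chain of podocytes, fell by 0.54 on the log2 scale (adjusted p = 0.000326, edgeR).

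Of 7 matrix precursors, 5 were tested and 1 was called. Fbn2, a fibrillin gene, was at 27.9, 23.5 and 19 CPM in WT and 1.38, 0.72 and 1.54 CPM in AS podocytes (log2 fold change -4.27, SE 0.25, adjusted p = 1.76e-06, edgeR), while Fbn1 was at 795 ± 174 and 666 ± 99.1 CPM (SD, n = 3 each) and was not called (adjusted p = 0.219, edgeR). Of the 5 lipases and angiopoietin-like inhibitors 3 were tested and 1 was called. Lipg, the endothelial lipase that Pcsk5, Pcsk6 and furin cut, was at 6.21, 7.43 and 6.16 CPM in WT and 4.02, 5.47 and 3.69 CPM in AS podocytes (log2 fold change -0.59, SE 0.17, adjusted p = 0.0237, edgeR). It did not pass without WT replicate 2, AS replicate 1 or AS replicate 3, at -0.50, -0.54 and -0.47. Angptl4 had a log2 fold change of 0.33 (adjusted p = 0.147, edgeR). Cleavage of these precursors was not measured.

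**Figure D5:**
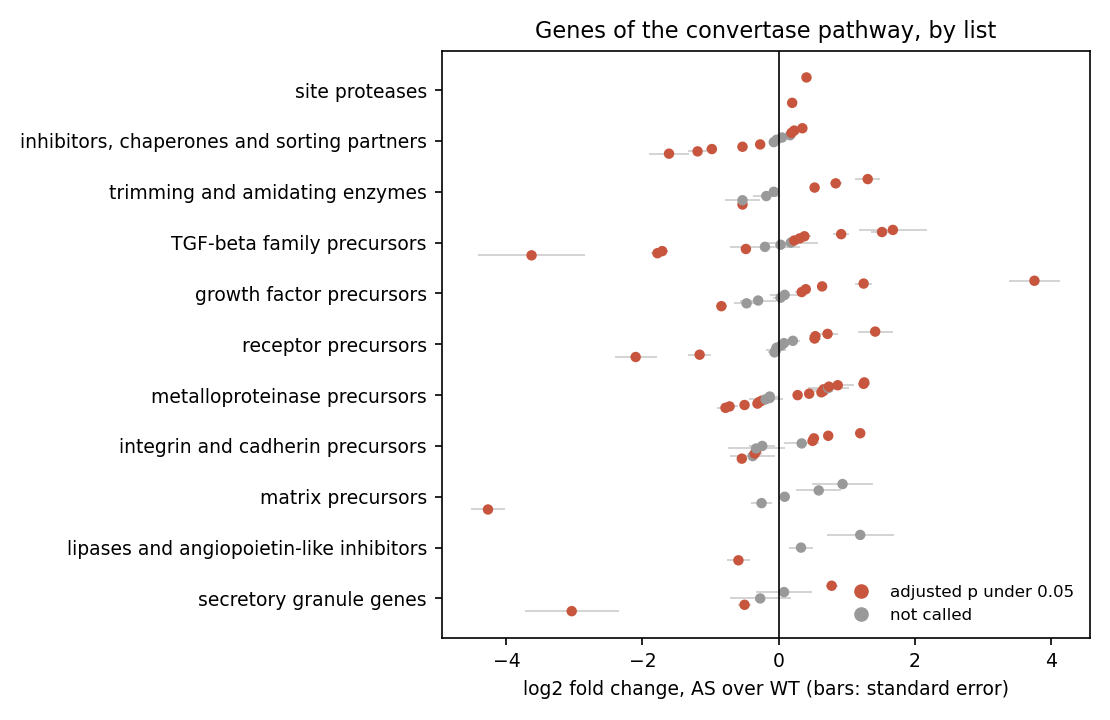
Log2 fold change of AS over WT with its standard error for the 99 tested genes of the 11 lists, red where the adjusted p was under 0.05 and grey otherwise. Points lie on both sides of 0 in every list except the site proteases, with Fbn2 (-4.27) and Vegfd (3.76) farthest out.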

How the data were processed

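For 3 WT and 3 AS samples the deposited values are raw read counts by gene, neither normalized nor pooled. Libraries were made from 100 ng of RNA with 15 cycles of PCR. The submitters' processing notes name FastQC, Trim Galore, STAR, edgeR and build mm39, and no annotation, counting tool or strand setting is given there or in the methods text. Of 57132 identifiers, 51880 matched GENCODE M21 (GRCm38) without the version, and 35 with it. It was used for symbols, gene order, exon overlaps and lengths alone. Low genes were removed with filterByExpr at its defaults (a count of 10 and a total of 15), and after TMM scaling the quasi-likelihood test of edgeR 4.0.16 (R 4.3.3) was run with genotype as the single term, two-sided, with Benjamini-Hochberg adjustment over 16263 genes. The SE was obtained by dividing each log2 fold change by the root of its F statistic. The test was tested on simulated data. No single value was tested by exact permutation, where 3 against 3 samples give at best p = 0.10. Limits of detection cover counting error only.

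The members and lists were chosen with earlier results of these data known. Genes named are the convertases, Col4a3, the site proteases, at most 3 called genes of each list by adjusted p, list members with a known role, the 5 nearest genes on each side of Pcsk5 and the 5 nearest in pattern. Alternatives were RLE scaling, library size only, no filter, a mean CPM of at least 1, DESeq2 1.42.0, limma-voom (limma 3.58.1), a replicate block, each sample left out, chromosome medians subtracted and the longest transcript as length. Protein sequences were not used here. Some single genes of the lists are not reported here.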

Additional observations from a re-analysis of the deposited data

How the results depend on the processing

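The count of genes called ran from 5120 to 7066 against 6517, the pathway genes called from 55 to 69 against 63, and the neighbours of Pcsk5 called stayed at 4 in all 13 alternatives. The convertases called were 3 under the stricter filter (mean CPM of 1 or more), where Pcsk4 was not tested, and in 3 fits with 1 sample left out, and 4 otherwise. Of 571 values of 43 single genes, 549 kept their direction and side of the threshold or moved by less than 1 SE, 11 lost the threshold (Pcsk4, Mbtps2 and Lipg) and 8 moved by more than 1 SE when the chromosome median was subtracted, which was computed there for 5 convertases and 10 neighbours. Pathway genes moved by more than 1 SE too, among them Mbtps1 from 0.41 to 0.11 and Gdf11 from 0.38 to 0.07 on chromosomes 8 and 10. On chromosomes 15 and 5, Itga5 moved from 0.73 to 0.53 and Vgf from 0.78 to 0.59. Some moved away from 0, such as Gdf15 on chromosome 8 from -1.78 to -2.08. Leaving the chromosome medians aside, the direction was reversed in 3 values, all of Gna14. Gna14 had under 1 CPM, was not called and ran from -0.24 to 0.76 with 1 sample left out. Subtracting the chromosome median also changed the sign of Gna14 (0.10 to -0.09), Vps13a (0.08 to -0.11), Rfk (0.04 to -0.15) and Carnmt1 (0.11 to -0.08), none of them called. The Pcsk5 level of 14.8 CPM per kb in WT moved to 29.8 with the longest transcript, which is shorter than the merged exons. The 5 genes nearest in pattern were all shared with library size only.

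What same-numbered samples share is not stated in the labels. Their deviations correlated at 0.147, 0.0939 and 0.0526, and those of other pairs between -0.13 and 0.0571. WT replicate 3 correlated best with AS replicate 2 (0.0571) rather than with its own number (0.0526). Whether the replicate numbers mark a shared batch was not tested. With the replicate block 7066 genes, 4 convertases, 68 pathway genes and 4 neighbours were called. With it Col4a3 was at -3.98, Pcsk5 at -6.07, Pcsk6 at 0.83, Furin at -0.32 and Pcsk4 at 1.11. Depth limits Pcsk1, Pcsk2 and Pcsk4.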
